A study of Mus musculus with 4 samples.

Results

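The chemokine ligands Cxcl9, Cxcl10 and Cxcl16 and the receptors Cxcr3 and Cxcr6 were followed through the immune cells of YUMMER1.7 melanomas, a mouse melanoma line with a high load of mutations, from mice given anti–PD-1, anti-MIF or both. These 5 genes, of 32285 in the count tables, were chosen as 2 ligand and receptor pairings, Cxcl9 and Cxcl10 with Cxcr3, and Cxcl16 with Cxcr6. The ligands were read in myeloid and dendritic cells and the receptors in T and NK cells, and no value of a member gene was used to define a cell.

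CXCL9 and CXCL10 are induced by interferon-γ in macrophages and dendritic cells, and both bind CXCR3 on activated T and NK cells, which follow them into inflamed tissue. CXCL16 is made as a transmembrane protein that the protease ADAM10 can shed, and it binds CXCR6, a receptor of tissue-resident and effector T cells that keeps CD8+ T cells close to CCR7+ dendritic cells in tumors. All 3 ligands signal through G protein–coupled receptors.

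The data were UMI counts of single cells from 2 pooled 5′ libraries, each with a hashtag library of the same cells. Tumors grew under the skin of wild-type male C57BL/6J mice of 7 to 8 weeks, and treatment began on day 7 by intraperitoneal injection of isotype control, anti–PD-1 (RMP1-14, 10 mg/kg), anti-MIF (IIID.9, 20 mg/kg) or anti–PD-1/anti-MIF. The long treatment cohort received 4 doses over 2 weeks with tumors taken on day 21, and the short treatment cohort received 2 doses over 1 week with tumors taken on day 14. All arms carried the same tumor line and host genotype, CD45+ and CD45- cells were sorted and recombined at 80% and 20%, and the number of mice behind each arm is not given in the sources used here.

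After filtering, 204 isotype, 319 anti–PD-1, 879 anti-MIF and 269 anti–PD-1/anti-MIF cells of the long cohort remained, and 745, 1370, 556 and 448 of the short cohort. The libraries held 23702910 and 31799441 gene UMIs, and the median kept cell had 8242 (long) and 5835 (short) UMIs. An arm within a cohort counts as 1 sample. Arms of the 2 cohorts and of the other antibody therefore served as replicates in the tests. Every p-value measures the spread between the arms in its test, which were 8, 7 or 6 in the main comparisons. Each cohort is 1 library, so day, number of doses and library cannot be told apart. The 2 libraries shared 20 cell barcodes, of which 14 were kept cells.

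Cells were gated by marker UMIs alone. The Lyz2 gate (at least 5 Lyz2 UMIs per 10000) held 796 and 1974 cells, the mature DC gate (Ccr7 and Fscn1) 103 and 46, the cDC1 gate (Xcr1 or Clec9a) 93 and 73, the T gate (Cd3e) 262 and 300 and the NK gate (Ncr1) 34 and 105, in the long and the short cohort. The gates held 77.1% and 80.1% of cells. Independent markers followed the T and mature DC gates: the T cell receptor gene Trac stood at 311 and 378 CPM (UMIs scaled to a total of 1e+06) in the T gate against 1.07 and 0.44 in the Lyz2 gate, and Ccl22 at 960 and 775 CPM in the mature DC gate. No cell carried 3 or more UMIs of the melanocyte genes Mlana, Pmel and Dct, so the tumor cells named in the labels were not found by these markers. The T gate takes no cell over the Lyz2 limit, so its Lyz2 level is no measure of free RNA. The macrophage genes C1qa and Csf1r, which no gate rule used there, stood at 7.89 and 4.50 and at 2.43 and 5.25 CPM in the T gate.

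Cxcl9 and Cxcl10 lie side by side on mouse chromosome 5 (GRCm38, minus strand), at chr5:92321347-92328079 and chr5:92346638-92348889. Cxcl16 lies at chr11:70453983-70459984 and Cxcr3 at chrX:101731535-101734269, both on the minus strand, and Cxcr6 at chr9:123806475-123811760 on the plus strand. The 250 bases before the transcription start of the 2 interferon-induced ligands (RefSeq, GRCm38.p6, minus strand) are shown because the pair behaved differently across cell types. They span chr5:92328080-92328329 for Cxcl9 and chr5:92348890-92349139 for Cxcl10, 5′ to 3′, and capitals mark matches to the motifs named below.
Cxcl9: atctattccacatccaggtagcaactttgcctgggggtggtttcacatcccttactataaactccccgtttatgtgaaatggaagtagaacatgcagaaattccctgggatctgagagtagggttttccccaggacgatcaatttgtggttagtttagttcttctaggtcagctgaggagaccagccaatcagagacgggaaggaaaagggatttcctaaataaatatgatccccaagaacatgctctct
Cxcl10: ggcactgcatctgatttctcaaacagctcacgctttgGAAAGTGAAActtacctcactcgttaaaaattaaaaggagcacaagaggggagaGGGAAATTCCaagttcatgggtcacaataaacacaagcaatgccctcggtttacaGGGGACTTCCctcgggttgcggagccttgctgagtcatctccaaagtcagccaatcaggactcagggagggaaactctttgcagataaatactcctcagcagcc

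The motifs described here were searched on both strands, with no overlap between matches. The interferon-stimulated response element, spelled as a pair of GAAA blocks with any 2 bases between them, was in the Cxcl10 window at 213 to 204 bases before the start, and in 2.98% of 32851 mouse promoter windows of this length. The NF-κB motif, GGG and TTCC with any 3 bases between them, was there at 159 to 150 and at 104 to 95 bases before the start, and in 4.65% of windows. Of the 4 member windows that matched the table (Cxcl9, Cxcl10, Cxcr3 and Cxcr6), those of Cxcl9, Cxcr3 and Cxcr6 held neither spelling, which says only that these letters are not in these windows. Cxcl16 had no entry.

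The Lyz2 gate, the largest of the gates, held 47.6% of the long and 63.3% of the short cells, and 55.8% and 69.5% of the UMIs of all genes. It carried 65.5% and 82.3% of all Cxcl9 UMIs, the cDC1 gate 11.6% and 8.74%, and cells of no gate 22% and 8.64%. For Cxcl10 the Lyz2 gate carried 77.6% and 87.5%, and cells of no gate 17.9% and 9.04%. Cxcl16 was the more widely spread ligand: the Lyz2 gate carried 59.8% and 66.9% of its UMIs, close to its share of all UMIs, cells of no gate 18.5% and 19.7%, and the mature DC gate 15.3% and 7.60% from 6.16% and 1.47% of the cells. Cxcr6 was almost a T cell gene in these libraries, with 97.4% and 92.2% of its UMIs in the T gate. Cxcr3 UMIs were fewer (231 in the long cohort) and scattered, with 33.3% and 50.9% in the T gate, 27.7% and 10.3% in the cDC1 gate, 18.6% and 6.03% in the Lyz2 gate, 4.76% and 10.3% in the NK gate and 15.6% and 22.4% in cells of no gate.

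Shares of cells with a UMI gave the same picture at equal depth. With each cell thinned to 2000 UMIs, Cxcl16 was seen in 83.2% (exact 95% interval 74.4 to 89.9%) of 101 mature DCs of the long cohort and in 76.7% (61.4 to 88.2%) of 43 in the short cohort. In the T gate, read as the background for a ligand, 0.84% of 237 and 0.38% of 261 cells had a Cxcl16 UMI. Cxcr6 was seen in 57.8% (51.2 to 64.2%) and 40.2% (34.2 to 46.5%) of T cells, against 0.13% and 0.11% in the Lyz2 gate. Without thinning the shares were 97.1% and 89.1% for Cxcl16 in mature DCs and 78.2% and 53.7% for Cxcr6 in T cells. Thinning left out 2 and 3 mature DCs, 25 and 39 T cells and 44 and 141 Lyz2 cells that were shallower. These intervals cover counting error only.

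**Figure D1:**
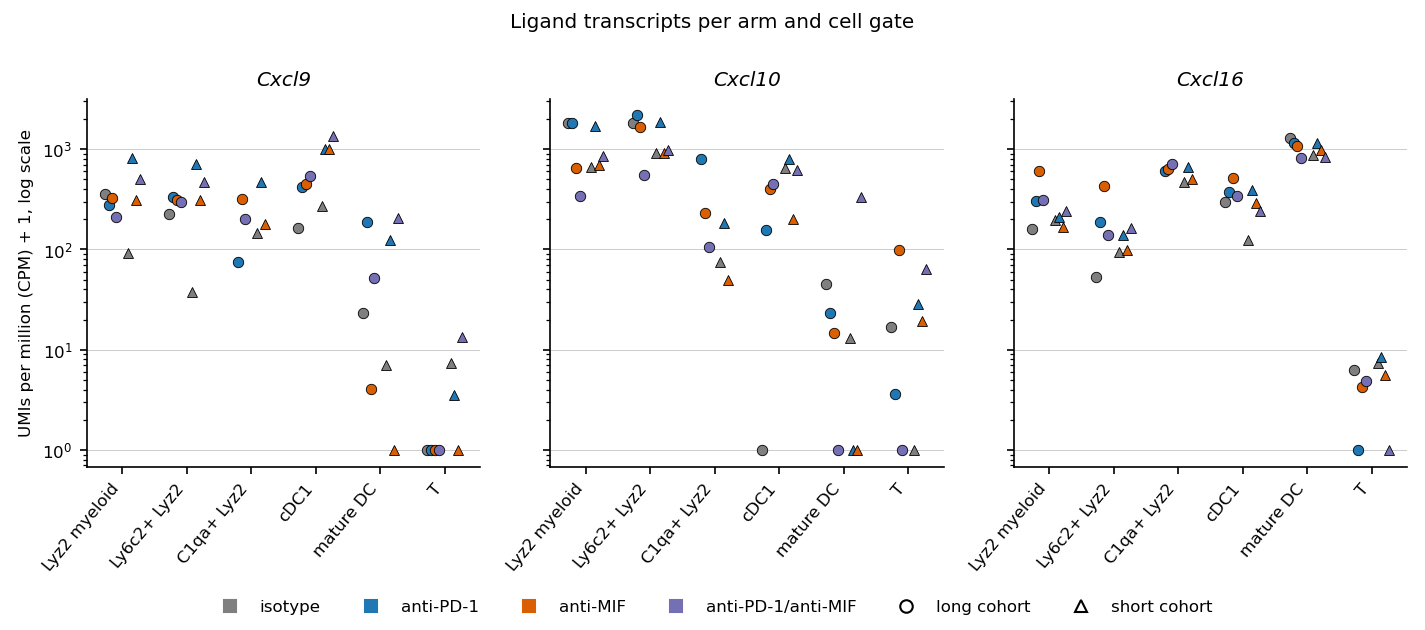
Levels of Cxcl9, Cxcl10 and Cxcl16 in CPM (log axis) by cell gate, 1 point per treatment arm and cohort. The mature DC points of Cxcl16 all lie above those of the Lyz2 gate, while 7 of 8 mature DC points of Cxcl10 lie at 44.7 or below, and 1 is added to each value so that 0 can be drawn.

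Mature DCs, the migratory Ccr7+ state of dendritic cells, carried high Cxcl16 and little Cxcl9 or Cxcl10. In the order isotype, anti–PD-1, anti-MIF and the combination, Cxcl16 stood at 1308, 1164, 1070 and 821 CPM in mature DCs of the long cohort and at 882, 1164, 981 and 837 CPM in the short cohort. In the Lyz2 gate the same arms had 160, 303, 607 and 311 CPM in the long and 197, 209, 168 and 239 CPM in the short cohort. Every mature DC value was above every Lyz2 value, and the arms of the mature DC gate lay close together. Over the 8 arms, with the arm as a block, Cxcl16 was higher in mature DCs by 1.78 ± 0.17 on the log2 scale (SE, n = 8 arms, edgeR quasi-likelihood test, Benjamini-Hochberg adjusted p = 3.81e-15). This was a contrast in which 52.1% of 8489 genes passed the test (19.7% higher and 32.4% lower), and the median gene stood at -0.22.

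Cxcl9 and Cxcl10 went the other way in the same contrast. Cxcl10 was lower in mature DCs in 8 of 8 arms, by a log2 difference of -5.00 ± 0.31 (adjusted p = 4.05e-24). Its mature DC level ran from 0 to 44.7 CPM in 7 of the arms and was 332 CPM in the short anti–PD-1/anti-MIF arm, where a single cell held all 21 UMIs. In the T gate, read as the background for a ligand, pooled Cxcl10 was 41.3 (long) and 27.0 CPM (short). Pooled mature DCs had 16.3 and 69.6 CPM, so the log2 difference is a distance to about that background. Cxcl10 passed the filter on low counts through the Lyz2 gate, the side where it was high. Cxcl9 was also lower in 8 of 8 arms, with a log2 difference of -2.84 ± 0.30 (adjusted p = 4.1e-13). Leaving out any 1 arm kept all 3 ligand calls.

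The interferon-side genes fixed as a list (interferon receptors, JAK-STAT and IRF factors, guanylate-binding proteins and other interferon-γ targets, IL-12 and IL-15 genes, and the shedding proteases Adam10 and Adam17) also split between mature DCs and the Lyz2 gate. Of 29 tested, 8 were higher and 17 lower in mature DCs, where 19.7% and 32.4% of all genes were, with a median log2 difference of -0.88 against -0.22. Il12b, the IL-12 p40 subunit, had 1106 UMIs in mature DCs and 3 in the Lyz2 gate, a ratio of CPM of 6155 with a 95% counting interval of 2101 to 29893. Il15ra, which presents IL-15 to lymphocytes, was higher by 3.24 ± 0.21, Jak2, the kinase of the interferon-γ receptor, by 2.05 ± 0.19, and Cd274, which encodes PD-L1, by 1.65 ± 0.17. Gbp7, a guanylate-binding protein, had a log2 difference of -4.94 ± 0.46 on 4 mature DC UMIs, and Ifngr1, the ligand-binding chain of the interferon-γ receptor, -2.37 ± 0.24.

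The cDC1 gate, set by Xcr1 or Clec9a, genes that mark the dendritic cells that cross-present antigen to CD8+ T cells, carried Cxcl9. Its Cxcl9 level was 162, 416, 449 and 541 CPM in the long arms and 273, 1009, 995 and 1361 CPM in the short arms, in the same order of arms. In the Lyz2 gate Cxcl9 stood at 358, 275, 325 and 208 CPM and at 92, 811, 307 and 505 CPM. The cDC1 value was the higher in 7 of 8 arms, the exception being the long isotype arm. The log2 difference was 0.69 ± 0.23 (n = 8 arms, edgeR adjusted p = 0.0313), where 30.2% of 7975 genes passed (13.6% higher and 16.5% lower). The call was lost without the long anti–PD-1/anti-MIF arm (0.56, adjusted p = 0.0946), the short isotype arm (0.61, 0.0849), the short anti-MIF arm (0.60, 0.0856) or the short anti–PD-1/anti-MIF arm (0.61, 0.0875), when 2 UMIs of each marker were required (0.10, 0.786), with no replicate block (0.80, 0.122) and in the long cohort alone (0.33, 0.58).

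Cxcl10 was lower in the same contrast and Cxcl16 did not pass the test. Cxcl10 stood at 0, 156, 403 and 451 CPM in the long and 655, 797, 201 and 623 CPM in the short cDC1 gate, below the Lyz2 gate in 7 of 8 arms, with a log2 difference of -1.47 ± 0.49 (adjusted p = 0.0286). Without the long anti–PD-1 arm (-1.16, adjusted p = 0.0862) or the short anti-MIF arm (-1.38, 0.0749) this call was lost, as it was with DESeq2 (-1.55, 0.116) and in the long cohort alone (-2.15, 0.133). Cxcl16 stood at 297, 371, 510 and 338 CPM and at 123, 390, 291 and 240 CPM, above the Lyz2 gate in 6 of 8 arms, with a log2 difference of 0.14 ± 0.17 (adjusted p = 0.594). Of the 29 tested genes on the interferon side, 3 passed as higher and 13 as lower in the cDC1 gate, against 13.6% and 16.5% of all genes (median -0.40 against 0.01). Il12b passed as higher, but 4 of 8 cDC1 arms were at 0 and the Lyz2 gate held 3 UMIs against 135. Ciita, the master regulator of MHC class II, was higher by 1.52 ± 0.18, whereas Nos2, the inducible nitric oxide synthase, had -2.99 ± 0.44, Cd274 -1.0 ± 0.16, Adam10 -1.03 ± 0.19 and Gbp3 -1.13 ± 0.21.

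The cDC1 gate was not pure. Beside Xcr1 at 151 and 65.3 CPM and Clec9a at 226 and 198 CPM it held C1qa at 590 and 525, Ly6c2 at 1149 and 1063, Lyz2 at 481 and 1688 and Csf1r at 138 and 206 CPM, genes of monocytes and macrophages, so its values belong to cells with an Xcr1 or Clec9a UMI and not to cDC1 as a class. The Lyz2 gate held C1qa at 1998 and 301, Ly6c2 at 1124 and 1973 and Csf1r at 493 and 413 CPM. Their part in the differences between the gates was not tested. The gate also held Siglech, a gene of plasmacytoid dendritic cells, at 444 and 322 CPM. In a split made after this was seen, the 24 and 16 cells with a Siglech UMI held Clec9a at 193 and 224 CPM and no Cxcl9 UMI, and the other 69 and 57 cells had 508 and 1087 CPM. The Cxcr3 level was higher in cells with Siglech, at 151 and 58.1 CPM (29 and 7 UMIs), than in cells without it, at 39.4 and 7.93 CPM (35 and 5 UMIs). Cxcl10 went opposite ways in the cohorts, at 10.4 and 797 CPM with Siglech against 349 and 641 CPM without it. Without the cells with a Siglech UMI, the Cxcl9 difference from the Lyz2 gate was 1.08 (edgeR adjusted p = 0.00154) and that of Cxcl16 0.51 (adjusted p = 0.0206). The removed cells held no Cxcl9 UMI and 5 and 0 Cxcl16 UMIs, so their removal could only raise these levels. No conclusion is drawn from these calls.

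Within the Lyz2 gate, Ly6c2+ and C1qa+ cells carried different ligands. Ly6c2+ cells without C1qa (monocyte markers) were compared with C1qa+ cells without Ly6c2 (a complement gene of tissue macrophages) in the 6 arms that held at least 5 cells of each. Cxcl16 stood at 611 to 705 CPM in C1qa+ cells of 3 long arms and 469 to 662 CPM in 3 short arms, against 52.1, 187, 427 and 140 CPM and 94.3, 138, 98.7 and 161 CPM in Ly6c2+ cells of all arms. The ranges did not overlap, and Cxcl16 was higher in C1qa+ cells by 1.90 ± 0.21 on the log2 scale (n = 6 arms, edgeR adjusted p = 3.24e-06), in a contrast in which 26.1% of 7539 genes passed (11.7% higher and 14.4% lower).

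Cxcl10 was the reverse. It stood at 1831, 2178, 1665 and 558 CPM in the long and 925, 1890, 911 and 990 CPM in the short Ly6c2+ cells, against 105 to 801 CPM and 48.9 to 182 CPM in C1qa+ cells. The C1qa+ value was the lower in 6 of 6 arms, with a log2 difference of -2.85 ± 0.23 (adjusted p = 7.82e-08). The Ly6c2+ cells also held S100a8, a gene of neutrophils and monocytes, at 1719 CPM in the long and 248 CPM in the short cohort, against 2.27 and 1.37 CPM in C1qa+ cells, and its part in the difference was not tested. Cxcl9 did not pass the test. It was higher in C1qa+ cells in 2 of 6 arms, with a log2 difference of -0.20 ± 0.30 (adjusted p = 0.67). With clusters in place of the gates this value was 1.70 (adjusted p = 0.00746), in the opposite direction.

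Many interferon-side genes were lower in the C1qa+ cells. Of 28 tested, 17 passed as lower, 0 passed as higher and 11 did not pass, among them Ciita at 0.75, where 14.4% of all genes were lower, with a median of -0.70 against -0.01 over all genes. The 6 of smallest p were Gbp2 (-1.80 ± 0.21), Gbp5 (-2.15 ± 0.27), Irf7 (-1.12 ± 0.16), Irgm1 (-1.39 ± 0.19), Stat2 (-1.29 ± 0.18) and Jak2 (-1.16 ± 0.18). Gbp2, Gbp5 and Irgm1 are interferon-induced GTPases, Irf7 is a transcription factor of type I interferon responses, and Stat2 carries the type I interferon signal.

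The order of the ligand levels across the gates followed from these values. In the long cohort Cxcl16 took the order mature DC (median of arms 1117 CPM), C1qa+ (634), cDC1 gate (355), Ly6c2+ (164), T (3.51) and NK (0), and in the short cohort the order was the same. The neighbours cDC1 gate and Ly6c2+ overlapped over the arms in both cohorts, and so did T and NK. For Cxcl10, Ly6c2+ cells were at the top (1748 and 957 CPM), and in the long cohort the C1qa+ range (105 to 801 CPM) overlapped both theirs (558 to 2178 CPM) and that of the cDC1 gate. In the short cohort the cDC1 gate came next and the 3 ranges did not overlap. For Cxcl9, the cDC1 gate had the highest median (433 and 1002 CPM), and its range overlapped those of Ly6c2+ cells (301 and 388 CPM) and C1qa+ cells (203 and 179 CPM) in both cohorts.

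Single cells of the Lyz2 gate were read for pairs of ligands at 2000 UMIs per cell, a depth at which a ligand can go unseen. Each pair was seen together in 5.45% to 11.7% of 752 long and 5.78% to 8.57% of 1833 short cells. Cells with more than 1 ligand of any kind were not counted. Of the cells with a Cxcl9 UMI, 31.5% (long) and 45.9% (short) also had a Cxcl10 UMI, against 18.3% and 23.3% of cells without Cxcl9. Cxcl16 was seen in 67.7% and 39.5% of Cxcl9+ cells, against 42.6% and 17.2% of the others. For Cxcl10 and Cxcl16 the shares were alike, 47.1% against 46.9% and 21% against 21.4%. These shares describe cells of 1 library each and were not tested.

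**Figure D2:**
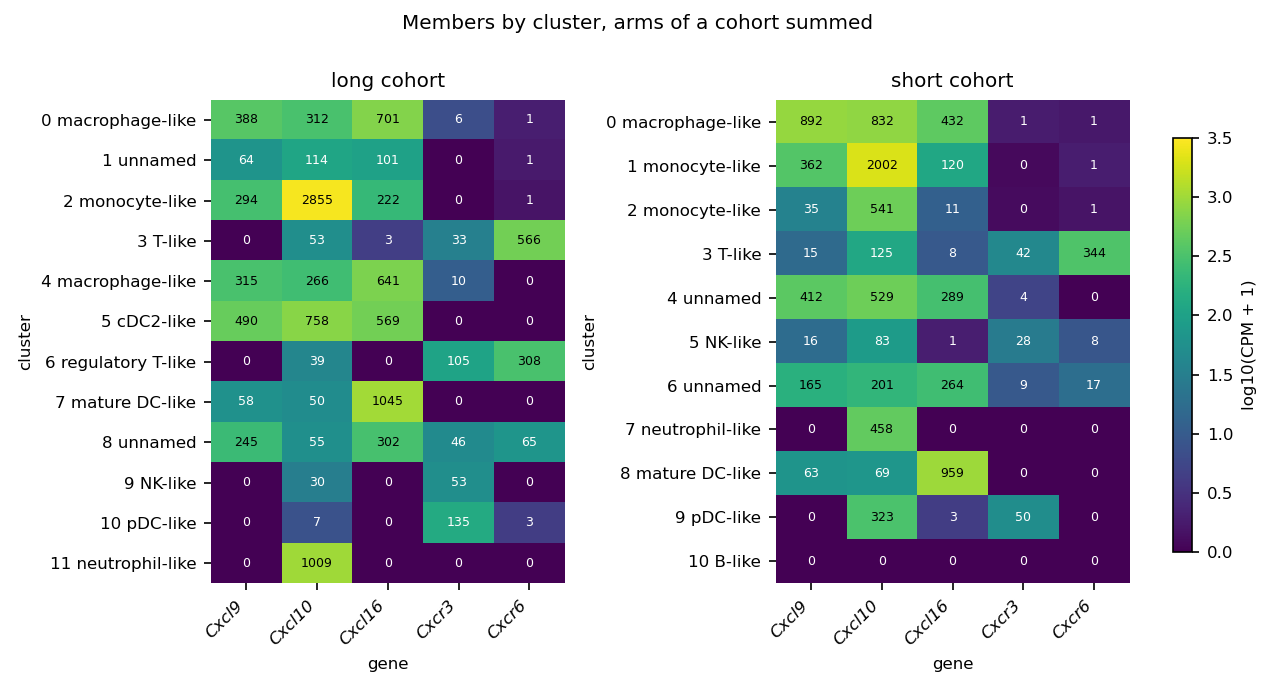
Level of each member gene in CPM (log colour scale) in every cluster of each cohort, with all arms pooled. Cxcl10 peaks in the monocyte-like, Cxcl16 in the mature DC-like and Cxcr6 in the T-like cluster of both cohorts.

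Clusters made without the member genes gave levels for cell types the gates do not cover. Cxcl10 was highest in a monocyte-like cluster led by Cxcl3, at 2855 CPM (894 to 3814 over the arms) in the long and 2002 CPM (1257 to 2546) in the short cohort. Rsad2 came next in the long cluster, and Egln3 and Inhba in the short one, whose top 10 genes held 0 of the monocyte list. Neutrophil-like cells, read by S100a8 and Retnlg, came next to it in the long cohort with 1009 CPM of Cxcl10 and held 459 CPM in the short cohort, with no UMI of Cxcl9 or Cxcl16. Cxcl9 was highest in the macrophage-like cluster of the short cohort (892 CPM, 247 to 1394 over the arms) and in the cDC2-like cluster of the long cohort (490 CPM), whose leading genes include the B cell gene Cd79a. Cxcl16 reached 1045 and 959 CPM in the mature DC-like clusters and 701 and 641 CPM in the 2 macrophage-like clusters of the long cohort. The larger of these macrophage-like clusters, with 319 cells, held 0 of the macrophage list in its top 10 genes. B-like cells, named in the short cohort only, had no UMI of any member. The pDC-like clusters carried the highest Cxcr3 in each cohort, 135 and 50.5 CPM.

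Genes with a like pattern over the 23 clusters were named by Pearson's r of log2(CPM + 10), among 6114 genes. For Cxcl9 they were Sh3pxd2b (0.97), Spint1 (0.95), Dab2 (0.94), Phf11d (0.93) and Aif1 (0.92). For Cxcl10 they were Hk2 (0.90), Tgm2 (0.89), Atf3 (0.88), Rsad2 (0.87) and Emilin2 (0.86), and for Cxcl16 Cttnbp2nl (0.95), F11r (0.94), Bcl2a1a (0.93), Shtn1 (0.93) and Tnfsf9 (0.92). Cxcr6 went with Gm156 (0.99), Cd6 (0.98), Themis (0.97), Cd5 (0.96) and Bcl11b (0.95), and Cxcr3 with Lag3 (0.91), Sla2 (0.90), Srgap3 (0.89), S1pr4 (0.88) and Ppp6r1 (0.86). The clusters of a cohort share a library, and the values are a description.

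**Figure D3:**
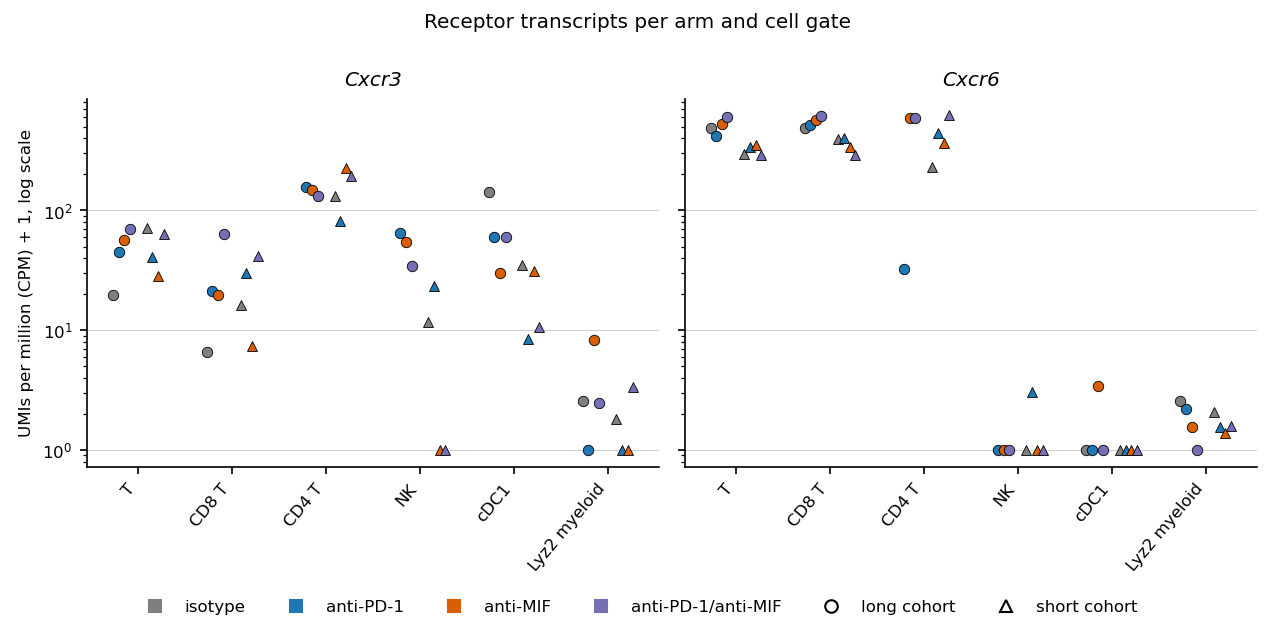
Levels of Cxcr3 and Cxcr6 in CPM (log axis) by lymphocyte and cDC1 gate, 1 point per treatment arm and cohort. Cxcr6 lies between 287 and 604 in every T gate arm and at or near 0 in the NK gate.

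Cxcr6 marked T cells and was close to absent from NK cells. In the T gate it stood at 487, 420, 531 and 604 CPM in the long and 298, 339, 351 and 287 CPM in the short cohort. The NK gate had 0 UMIs of it in the long cohort and 1 in the short anti–PD-1 arm. Against a floor of 3 UMIs over the cohort, the T level of the long cohort was at least 39.8-fold higher, and in the short cohort the ratio was 226 (95% counting interval 40.4 to 8964). The T level was the higher in 7 of 7 arms with enough cells of both kinds (edgeR adjusted p = 1.13e-12). In this contrast 14.3% of 3868 genes passed (6.41% higher in NK cells and 7.89% lower). Cxcr6 passed the filter on low counts through the T gate, the side where it was high. The test result is therefore given as a description, and the reading rests on the UMI counts.

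Cxcr3 was found in both T and NK cells. In the T gate it stood at 18.5, 44.4, 56.0 and 68.8 CPM in the long arms and 69.8, 40.1, 27.4 and 62.3 CPM in the short arms. In the NK gate it stood at 63.6, 53.1 and 33.2 CPM in the 3 long arms with at least 5 NK cells and at 10.8, 22.5, 0 and 0 CPM in the short arms. These NK values rest on 10 UMIs in the long and 12 in the short arms. The ranges overlapped in the long cohort, and in the short cohort every NK value was below every T value. NK cells were lower in 6 of 7 arms, and the log2 difference of NK from T cells was -0.87 ± 0.43 (n = 7 arms, edgeR adjusted p = 0.212). At equal depth, Cxcr3 was seen in 10.1% and 8.43% of T cells, against 0.53% of long and 0 of 1833 short Lyz2 cells, where 3 cells, the floor for a count of 0, would be 0.164%. Without thinning the shares were 15.6% and 15.3% of T cells, against 4.15% and 0.25% of Lyz2 cells.

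Of 23 receptor-side genes tested (T cell activation, residency and egress genes, their cytokine receptors and the G protein and arrestin of chemokine signaling), 5 were higher and 6 lower in NK than in T cells, where 6.41% and 7.89% of all genes were. Eomes, a transcription factor of NK and memory T cells, was higher by 3.75 ± 0.30 and Gzmb, granzyme B, by 1.59 ± 0.18. Pdcd1, which encodes PD-1, had -5.07 ± 0.38, with 11 NK UMIs in 1 arm and 0 in the other 6, and Il2ra -2.76 ± 0.45. Dpp4, a peptidase that trims CXCR3 ligands, had 2 UMIs in NK cells and 161 in T cells, a ratio of 27.3 (95% counting interval 7.43 to 227).

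CD4+ T cells carried more Cxcr3 than CD8+ T cells, and Cxcr6 did not pass the test between them. Cxcr3 stood at 5.53, 20.2, 18.8 and 62.6 CPM in long and 15.2, 28.9, 6.34 and 40.3 CPM in short CD8+ cells. In CD4+ cells it stood at 157, 147 and 132 CPM in the 3 long arms with at least 5 such cells and at 130, 80.6, 227 and 194 CPM in the short arms. The ranges did not overlap, CD8+ cells were lower in 7 of 7 arms and the log2 difference was -2.33 ± 0.48 (edgeR adjusted p = 0.00322), where 11.1% of 2020 genes passed (6.58% higher in CD8+ cells and 4.55% lower). In the long cohort alone the value was -2.17 (adjusted p = 0.114). The CD4 gate held only 5 to 15 cells per arm, with 24 and 23 Cxcr3 UMIs in the long and the short cohort.

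Cxcr6 ran from 487 to 610 CPM in long and 292 to 405 CPM in short CD8+ cells, and from 31.3 to 595 and 232 to 622 CPM in CD4+ cells. The log2 difference was 0.50 ± 0.35 (adjusted p = 0.415). Of 17 receptor-side genes tested, 5 were higher and 2 lower in CD8+ cells, against 6.58% and 4.55% of all genes. Among the higher ones were Runx3 (2.07 ± 0.36) and Tbx21 (1.90 ± 0.45), transcription factors of cytotoxic T cells, Ifng (2.19 ± 0.40) and the IL-12 receptor chain Il12rb2 (1.25 ± 0.39). The 2 lower were Il2ra (-2.95 ± 0.47) and Klf2 (-1.60 ± 0.47), a factor of circulating T cells. Among CD4+ cells the split by Foxp3, the factor of regulatory T cells, left 1 arm with 5 cells on each side, so no test was made. In that arm (long anti-MIF), Cxcr6 stood at 297 CPM in 8 Foxp3+ cells and 1275 CPM in 7 others, and Cxcr3 at 175 and 82.2 CPM. In the short cohort none of 11 Foxp3+ cells had a Cxcr6 UMI.

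**Figure D4:**
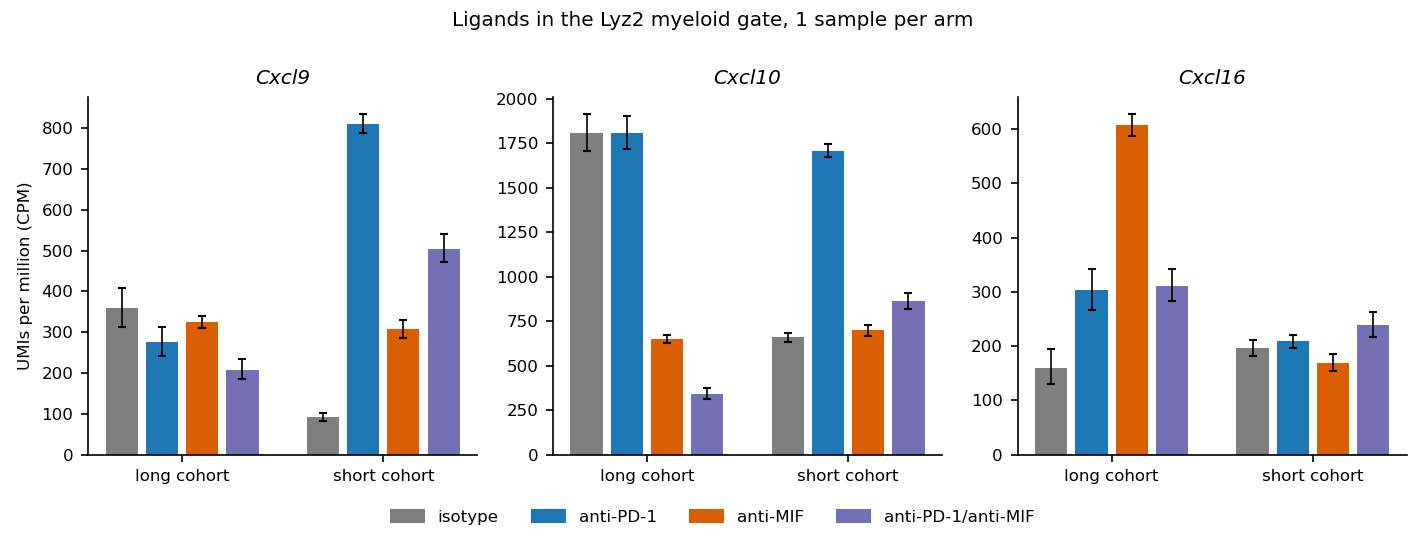
Ligand levels in CPM in the Lyz2 gate of each treatment arm, long and short cohort, with exact Poisson 95% intervals that cover counting error only. Cxcl10 is lower in both long arms with anti-MIF (651 and 343), and Cxcl9 is highest in the short anti–PD-1 arm (811).

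The effect of anti-MIF, the antibody to macrophage migration inhibitory factor, was read within gates in a model that also held the cohort and the other antibody. In the Lyz2 gate Cxcl10 stood at 1807, 1809, 651 and 343 CPM in the 4 long arms, in the order used above, and at 659, 1709, 699 and 861 CPM in the short arms. The arms with anti-MIF were lower in 3 of 4 pairs within a cohort, and only the short pair of isotype and anti-MIF was not. The log2 difference was -1.25 ± 0.34 (n = 8 arms, edgeR unadjusted p = 0.0047, adjusted p = 0.752), where 0% of 9578 genes passed, 609 had an unadjusted p under 0.05 and DESeq2 called 0. Without the filter on low counts the adjusted p was 0.000199, and in Ly6c2+ cells alone the value was -0.74 (adjusted p = 0.89). In the long isotype and anti–PD-1/anti-MIF arms a single cell held 31.4% and 41.5% of the Cxcl10 UMIs.

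Cxcl16 and Cxcl9 in the Lyz2 gate did not pass either. Cxcl16 was 607 CPM in the long anti-MIF arm against 160 in isotype, and 168 against 197 CPM in the short cohort, with a log2 difference of 0.44 ± 0.29 (adjusted p = 0.82) that was 0.04 without the long anti-MIF arm. Cxcl9 had -0.13 ± 0.47 (adjusted p = 0.984). The make-up of the gate moved with the arms: C1qa+ cells were 5.33, 13.3, 36.2 and 18% of Lyz2 cells in the long arms and 14.7, 1.79, 5.26 and 1.49% in the short arms, in the order isotype, anti–PD-1, anti-MIF and the combination. Their part in these differences was not tested beyond the value in Ly6c2+ cells. Of 28 interferon-side genes 0 passed and 5 had an unadjusted p under 0.05, with a median of -0.33 against 0.01 over all genes. The 2 of smallest p were the kinase Jak1 (-0.35 ± 0.12) and Irf9 (-0.33 ± 0.12), a factor of type I interferon responses.

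In the dendritic gates anti-MIF gave no call. Cxcl9 in the cDC1 gate was higher with anti-MIF in all 4 pairs of arms within a cohort, from 162 to 449, 416 to 541, 273 to 995 and 1009 to 1361 CPM. The log2 difference of 0.99 ± 0.27 had an unadjusted p of 0.0037 and an adjusted p of 1 in edgeR, where 0% of 3826 genes passed, 111 had an unadjusted p under 0.05 and DESeq2 called 2. These sums came from 12 to 36 cells per arm, and in 4 arms a single cell held 48.0 to 56.7% of the Cxcl9 UMIs. In mature DCs Cxcl16 had -0.27 ± 0.19 and Cxcl9 -0.70 ± 0.66 (-0.40 to -0.16 and -1.99 to -0.16 with 1 arm left out at a time), where 0% of 1862 genes passed, 53 had an unadjusted p under 0.05 and DESeq2 called 0. Of the interferon-side genes 0 of 16 passed in mature DCs (smallest p Gbp2, -1.15 ± 0.27, and Gbp5, -0.89 ± 0.29) and 0 of 25 in the cDC1 gate (Gbp5, 0.73 ± 0.28, and Il12b, with 132 UMIs in arms with anti-MIF and 3 in arms without it).

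**Figure D5:**
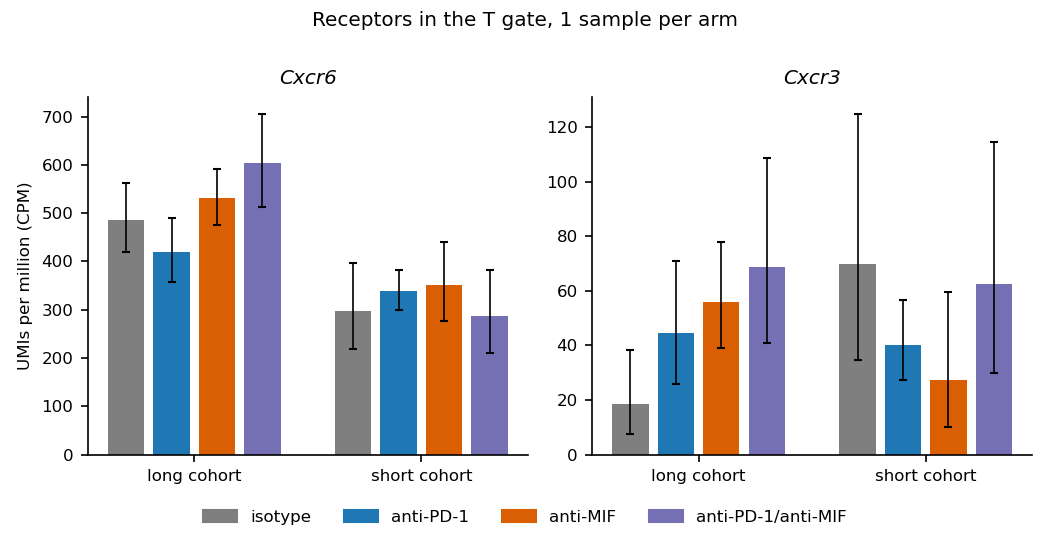
Receptor levels in CPM in the T gate of each treatment arm, long and short cohort, with exact Poisson 95% intervals that cover counting error only. Cxcr6 is higher in all 4 long arms (420 to 604) than in the 4 short arms (287 to 351). Cxcr3 rises in the order isotype, anti–PD-1, anti-MIF and the combination in the long arms (18.5 to 68.8). It does not follow that order in the short arms (27.4 to 69.8).

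The chemokine receptors of T cells gave no call with anti-MIF or with anti–PD-1. With anti-MIF, Cxcr6 had a log2 difference of 0.17 ± 0.16 (0.049 to 0.25 with 1 arm left out) and Cxcr3 of 0.53 ± 0.36 (0.15 to 0.82), with an adjusted p of 1 each. In this gate 0% of 5611 genes passed, 238 had an unadjusted p under 0.05 and DESeq2 called 0. With anti–PD-1, Cxcr6 had -0.03 ± 0.16 and Cxcr3 0.36 ± 0.36 (0.037 to 0.78 with 1 arm left out), again with an adjusted p of 1, 0% of genes past the test, 211 at an unadjusted p under 0.05 and 0 by DESeq2. Of 25 receptor-side genes 0 passed in either case, the smallest p being for the adhesion receptor Cd44 (-0.47 ± 0.16) and Il18r1 (0.39 ± 0.18) with anti-MIF, and for Il2ra (-1.36 ± 0.45) and Ifng (0.92 ± 0.32) with anti–PD-1. In the NK gate the receptors did not pass the filter on low counts, and 0 of 16 receptor-side genes passed with anti-MIF (Cd69, 1.51 ± 0.37, and Cd44, 1.36 ± 0.38) or with anti–PD-1 (Cd44, 1.17 ± 0.38, and Cd69, 1.05 ± 0.37), against 0.424% and 0.0707% of 1415 genes.

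With anti–PD-1, Cxcl9 stood higher in mature DCs, on few cells. The gene passed the filter on low counts through arms with anti–PD-1, the group where it was high. The test result is therefore given as a description, and no conclusion is drawn from it. Its level was 22.4, 185, 3.04 and 50.7 CPM in the long and 6.04, 123, 0 and 205 CPM in the short cohort, in the order isotype, anti–PD-1, anti-MIF and the combination. All 4 arms with anti–PD-1 were above all 4 without it. The log2 difference was 4.29 ± 0.74 (n = 8 arms, edgeR adjusted p = 0.0226), where 0.376% of 1862 genes passed (0.322% higher and 0.0537% lower). The gate held 6 to 69 cells per arm, and 24 of 25 Cxcl9 UMIs of the long anti–PD-1 arm and 13 of 13 of the short anti–PD-1/anti-MIF arm came from 1 cell each. The call was lost without the long isotype arm (4.87, adjusted p = 0.057), long anti–PD-1 (3.90, 0.595), long anti-MIF (3.86, 0.268), short isotype (3.98, 0.207), short anti-MIF (4.23, 0.0647) or short anti–PD-1/anti-MIF (3.67, 0.261), and when 2 UMIs of each marker were required (4.29, 0.153). Of 16 interferon-side genes 0 passed there (Gbp2, 0.92 ± 0.26, and Ciita, 2.53 ± 0.93).

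The other ligand values with anti–PD-1 did not pass. In the Lyz2 gate Cxcl9 stood at 92 CPM in the short isotype arm and 811 with anti–PD-1, while in the long cohort the same arms had 358 and 275 CPM. The fitted log2 difference was 0.65 ± 0.50 (adjusted p = 0.973, and 0.017 to 1.15 with 1 arm left out at a time), where 0% of 9578 genes passed, 430 had an unadjusted p under 0.05 and DESeq2 called 0. At 2000 UMIs per cell the share of Lyz2 cells with a Cxcl9 UMI was 5.02% (3.21 to 7.44%) and 28.8% (25.6 to 32.1%) in those short arms and 18.3% (10.1 to 29.3%) and 11.8% (6.05 to 20.2%) in the long arms. Cxcl9 in the cDC1 gate was higher with anti–PD-1 in every pair of arms within a cohort. It went from 162 to 416, 449 to 541, 273 to 1009 and 995 to 1361 CPM. The log2 difference was 1.02 ± 0.27 (edgeR unadjusted p = 0.0032, adjusted p = 0.45). In this gate 0% of 3826 genes passed, 293 had an unadjusted p under 0.05 and DESeq2 called 12. Without the filter on low counts the adjusted p of that value was 0.00484. Of the interferon-side genes 0 of 28 passed in the Lyz2 gate (smallest p Igtp, 0.82 ± 0.27, and Ciita, 0.36 ± 0.16) and 0 of 25 in the cDC1 gate (Gbp5, 1.16 ± 0.28, and Socs1, 0.87 ± 0.27).

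Whether an effect differed between cohorts, or with the other antibody given, was tested by 30 interaction terms of the members, and 0 passed. Lowest in p before adjustment were Cxcl10 in the cDC1 gate with anti-MIF by cohort (3.75 ± 1.04, edgeR adjusted p = 1), Cxcl9 in the Lyz2 gate with anti–PD-1 by cohort (-2.21 ± 0.67, adjusted p = 1) and Cxcl9 in the cDC1 gate with both antibodies (-1.25 ± 0.40, adjusted p = 0.582). The first rests on a long isotype arm with 0 UMIs.

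Between the cohorts, Cxcr6 in T cells was higher in the long one. All 4 long arms (420 to 604 CPM) lay above all 4 short arms (287 to 351 CPM), and the log2 difference was 0.59 ± 0.16 (n = 8 arms, edgeR adjusted p = 0.0439), where 6.7% of 5611 genes passed (3.24% higher and 3.46% lower). The call was narrow: DESeq2 gave an adjusted p of 0.0795, thinning to 2000 UMIs 0.52 with 0.159, and leaving out any 1 arm other than long anti-MIF (0.0476) gave 0.0528 to 0.152. Cxcr3 did not differ past the test (-0.09 ± 0.36, adjusted p = 0.904). The make-up of the T gate moved with the cohort: 203 of 262 long cells (77.5%) and 181 of 300 short cells (60.3%) were CD8+, Cd8a stood at 989.8 against 679.7 CPM and Gzma, a granzyme, at 12.7 against 181 CPM. In CD8+ cells alone Cxcr6 was 487 to 609.6 CPM over the long arms and 292 to 405 CPM over the short arms, which did not overlap. The part of this make-up in the cohort differences was not tested.

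Other receptor-side genes of T cells passed in this contrast in both directions, 4 higher and 4 lower of 25, against 3.24% and 3.46% of all genes, with a median of -0.01 against 0.00 over all genes. Higher in the long cohort were Gzmb (1.25 ± 0.24), Pdcd1 (1.01 ± 0.20), Ifng (1.35 ± 0.33) and Arrb2 (0.84 ± 0.19), the arrestin that desensitizes chemokine receptors. Lower were Cd44 (-0.89 ± 0.16), Klf2 (-1.34 ± 0.27), its target S1pr1 (-2.60 ± 0.59, 11 UMIs in the long cohort), the receptor for tissue egress, and Stat4 (-0.81 ± 0.21), which carries the IL-12 signal. In NK cells 0 of 16 passed (Cd44, -1.45 ± 0.39, and Gzmb, 1.01 ± 0.32), against 0.353% of 1415 genes.

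No ligand passed the edgeR test between cohorts in the fit used throughout, and some passed under other settings. In the Lyz2 gate, where 4.96% of 9578 genes passed (2.14% higher and 2.82% lower), Cxcl16 had 0.69 ± 0.29 (edgeR adjusted p = 0.167), Cxcl9 -0.35 ± 0.49 (0.701) and Cxcl10 0.01 ± 0.34 (0.99). Without the long isotype arm Cxcl16 passed (0.94, adjusted p = 0.0433), and without long anti-MIF it stood at 0.25 (0.451). It also passed with clusters in place of gates (0.88, 0.0342), thinned (0.99, 0.0359) and with no filter on low counts (0.67, 0.0173). The make-up of the Lyz2 gate moved with the cohort. C1qa stood at 1998 CPM in the long against 301 in the short cohort, Ly6c2 at 1124 against 1973 and S100a8 at 851 against 285. The part of this make-up in the cohort differences of this gate was not tested. In the cDC1 gate, Cxcl9 was -1.08 ± 0.26 (adjusted p = 0.279), where 0% of 3826 genes passed, 421 had an unadjusted p under 0.05 and DESeq2 called 12, Cxcl9 among them (adjusted p = 0.0399). With no filter on low counts Cxcl9 (-1.05, 0.00972) and Cxcl10 (-1.33, 0.00522) passed there. In mature DCs Cxcl16 was 0.20 ± 0.20 (adjusted p = 0.658), where 0.376% of 1862 genes passed. Of the interferon-side genes, Irf7 was higher in the long cohort in the Lyz2 gate (0.95 ± 0.19, adjusted p = 0.0301) and the other 27 did not pass, as did 0 of 16 in mature DCs (Irf1, 0.97 ± 0.22, and Gbp2, 1.09 ± 0.28) and 0 of 25 in the cDC1 gate (Irf7, 1.21 ± 0.31, and Socs1, 0.73 ± 0.28).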

How the data were processed

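Per the submitters' processing notes the authors used Cell Ranger 7.1.0 with mm10, and they deposited filtered UMI counts per gene and hashtag, without normalization; Seurat 5.1.0, R 4.3.2 and DESeq2 are also named there. Here, barcodes were assigned to arms with HTODemux (Seurat 5.3.0, R 4.3.3, quantile 0.99), and 425 and 626 hashtag doublets and 24 and 176 negatives were removed. A doublet caller was not run, so doublets within an arm remain. Kept cells had 200 to 5000 genes and up to 5% of their UMIs from mitochondrial genes. A 5th hashtag, whose name joins PD1, MIF and DDT, is not in the labels and entered only as values and in 1 alternative fit with a term of its own.

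UMIs were summed per arm and gate (at least 5 cells) and tested with edgeR 4.0.16 (filterByExpr, TMM, quasi-likelihood, Benjamini-Hochberg over all genes, 0.05). DESeq2 1.42.0 was an alternative. CPM is UMIs scaled to a total of 1e+06 within the gate. C1qa+ cells had at least 3 C1qa UMIs. On simulated data the anti-MIF fit of the Lyz2 gate (9598 genes) recovered 23.1% of 1 log2 unit changes and 90.6% of 2. The simulation gave every gene the same dispersion and put changes into 200 genes above a minimum mean count. The data need not share these settings, so the shares are not the power of the tests reported here. Louvain clusters (2000 variable genes, 30 components, resolution 0.4) left out member and pathway genes; their naming rule was settled after the data were seen. Named genes were the 5 members and, of 31 ligand-side and 27 receptor-side genes, up to 6 that passed by smallest p, otherwise the 2 of smallest p; Stat4 and Ifng in T cells fell outside this rule and were named after their values were seen. Cxcl11 was not analysed here, and 1 motif and 1 gene of the lists are not reported here by name. Members and lists were chosen with earlier results of these data known.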

Additional observations from a re-analysis of the deposited data

Results flagged for a closer look

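In 6 of 47 groups of 4 arms, 1 arm stood apart from the other 3 by Dixon's criterion at 95%. Chance gives this in about 1 in 20 groups when values are independent and normal. The groups here share arms, so the count is not set against that rate. In the Lyz2 gate, Cxcl10 was 659 CPM in the short isotype arm, against 1709 to 1809 CPM in the other arms without anti-MIF. It was 1807 CPM in the long isotype arm, against 651 to 699 CPM in the other arms without anti–PD-1. Cxcl16 was 607 CPM in the long anti-MIF arm, against 160 to 197 CPM in the other arms without anti–PD-1. In mature DCs, Cxcl10 was 332 CPM in the short anti–PD-1/anti-MIF arm, from 1 cell, against 0 to 13.7 CPM in the other arms with anti-MIF and 0 to 22.2 CPM in the other arms with anti–PD-1. In NK cells, Cxcr6 was 2.05 CPM (1 UMI) in the short anti–PD-1 arm and 0 in the other arms with anti–PD-1. With the other arms at 0, any UMI would meet the criterion, so no conclusion is drawn from this flag.

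Cells of the 5th hashtag, whose name joins PD1, MIF and DDT, were left out of the fits behind the report's comparisons and entered 1 alternative fit. Where a gate held at least 5 of them, 9 of 15 ligand levels had a counting interval above that of the isotype arm. These intervals cover counting error only and not the spread between arms, and a single cell held 31.4% of the Cxcl10 UMIs of the long isotype Lyz2 gate. Cxcl9 in the Lyz2 gate was 810.0 CPM against 358 in the long and 351 against 92 in the short cohort. Cxcl10 in the Lyz2 gate was 2019 against 1807 CPM and 925 against 659 CPM, and Cxcl16 in the long cohort was 254 against 160 CPM. In the cDC1 gate, Cxcl9 was 983 against 162 CPM in the long and 781 against 273 CPM in the short cohort, Cxcl10 was 378 CPM against 0 in the long cohort and Cxcl16 was 305 against 123 CPM in the short cohort. The other 6 were Cxcl16 at 319 against 297 CPM in the long and Cxcl10 at 527 against 655 CPM in the short cDC1 gate, Cxcl16 at 141 against 197 CPM in the short Lyz2 gate, and Cxcl9 at 20.7 against 6.04, Cxcl10 at 0 against 12.1 and Cxcl16 at 767 against 882 CPM in short mature DCs. In the alternative fit that gives this hashtag a term of its own, beyond the fitted effects of both antibodies, no member passed the edgeR test for that term, and 7 of 9 ligand values were negative.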

How the results depend on the processing

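Of the values outside single-arm removal, 600 were counted as the same. For values with a test, this means that they kept their direction and their side of the threshold. Among them were 19 (long) and 20 (short) mean ratios of 1 cohort alone that had no test. These were counted when they lay within the standard deviation of the single ratios from the fitted value, whatever their sign. In the Lyz2 gate with anti–PD-1, the long ratios of Cxcl9 were -0.38 and -0.64, against a positive fitted value. Among the values with a test, 11 calls were lost, 9 were gained and 29 values changed sign. Values that changed sign lay near 0 in most cases, and their causes were not tested. All values here are log2 differences, with adjusted p from the edgeR quasi-likelihood test in brackets unless DESeq2 is named. The difference of Cxcl10 between cohorts in the Lyz2 gate (0.01) was -0.015 with a stricter hashtag quantile, -0.035 with no upper gene limit, -0.015 with a Lyz2 limit of 2 per 10000, -0.00017 with DESeq2's size factors, -0.0033 with DESeq2 and -0.013 with no filter on low counts. At that quantile, Cxcl16 in the cDC1 gate with anti-MIF was -0.041, Cxcr6 in T cells with anti–PD-1 0.0066 and Cxcr3 between cohorts 0.026. With MULTIseqDemux, Cxcl16 in the Lyz2 gate with anti–PD-1 was -0.049. With the Lyz2 limit of 2, Cxcr6 between cohorts was 0.53 (0.0613).

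With at least 2 UMIs of each marker, Cxcl9 in mature DCs with anti–PD-1 was 4.29 (0.153), Cxcr6 between cohorts 0.53 (0.0768), Cxcl9 in the cDC1 gate against the Lyz2 gate 0.10 (0.786) and Cxcl16 there -0.17; Cxcl16 in the cDC1 gate was -0.42 (anti-MIF) and -0.33 (anti–PD-1), Cxcr6 in T cells with anti–PD-1 0.031 and Cxcr3 between cohorts 0.049. With clusters in place of gates, Cxcl16 between cohorts in the Lyz2 gate was 0.88 (0.0342), Cxcl9 between cohorts in mature DCs 0.071, Cxcr6 and Cxcr3 in T cells with anti–PD-1 0.024 and -0.22, and Cxcl9 in C1qa+ against Ly6c2+ cells 1.70 (0.00746). No cluster was named for cDC1, CD8+ or CD4+ T cells, so this was not run there. Thinned to 2000 UMIs, Cxcl9 in the Lyz2 gate with anti-MIF was 0.012, Cxcl16 between cohorts there 0.99 (0.0359), Cxcl16 in mature DCs 0.16 with anti-MIF and -0.11 between cohorts, and Cxcr6 in T cells -0.055 with anti-MIF and 0.52 (0.159) between cohorts.

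DESeq2 gave Cxcl9 in the cDC1 gate between cohorts -1.10 (0.0399), Cxcr6 between cohorts 0.59 (0.0795) and Cxcl10 in the cDC1 gate against the Lyz2 gate -1.55 (0.116). With no filter on low counts, Cxcl10 in the Lyz2 gate with anti-MIF was -1.23 (0.000199), Cxcl16 there between cohorts 0.67 (0.0173), Cxcl9 in the cDC1 gate 1.09 (0.00484) with anti–PD-1 and -1.05 (0.00972) between cohorts, and Cxcl10 in the cDC1 gate between cohorts -1.33 (0.00522). With the further hashtag, Cxcr3 between cohorts was 0.13. In the long cohort alone, Cxcl9 and Cxcl10 in the cDC1 gate against the Lyz2 gate were 0.33 (0.58) and -2.15 (0.133), Cxcr3 in CD8+ against CD4+ cells -2.17 (0.114) and the mean ratio of Cxcl9 in mature DCs with anti–PD-1 3.32. In the short cohort alone, Cxcl9 in C1qa+ cells was 0.21 and Cxcr6 in CD8+ cells -0.0064. Settings added after seeing the data gave, with no Siglech cells in the cDC1 gate, Cxcl16 at -0.13 with anti–PD-1 and 0.51 (0.0206) against the Lyz2 gate, and, in Ly6c2+ cells alone, Cxcl9 at 0.35 with anti-MIF and Cxcl10 at -0.00012 with anti–PD-1.

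Comparisons of gates kept the arm as a replicate block, since both gates come from the same arm. With no replicate block, Cxcl9 in the cDC1 gate against the Lyz2 gate was 0.80 (0.122), the other ligand calls and the Cxcr6 call held, Cxcr3 fell below the filter on low counts in both receptor comparisons and so has no value there (nor when thinned or with 2 UMIs of each marker), and counts of all genes past the test moved from 225 to 84 for CD8+ against CD4+ cells and from 553 to 282 for NK against T cells.

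Leaving out 1 arm at a time gave these lowest and highest values. With anti–PD-1: Cxcl9 in mature DCs 3.67 and 4.87 (called in 2 of 8), Cxcl16 there -0.22 and 0.020, Cxcl10 in the Lyz2 gate -0.21 and 0.60, Cxcl16 there -0.18 and 0.51, Cxcl16 in the cDC1 gate -0.016 and 0.54, and Cxcr6 in T cells -0.16 and 0.048. With anti-MIF: Cxcl9 in the Lyz2 gate -0.61 and 0.52, Cxcl10 in the cDC1 gate -0.021 and 1.28, and Cxcl16 in the cDC1 gate -0.015 and 0.60. Between cohorts: Cxcr6 in T cells 0.48 and 0.70 (called in 1 of 8), Cxcr3 -0.42 and 0.22, Cxcl9 in mature DCs -0.99 and 0.82, and in the Lyz2 gate Cxcl9 -0.91 and 0.23, Cxcl10 -0.43 and 0.44 and Cxcl16 0.25 and 0.94 (called in 1 of 8). In the cDC1 gate against the Lyz2 gate: Cxcl9 0.56 and 0.92 (called in 4 of 8) and Cxcl10 -1.80 and -1.07 (6 of 8).

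Counts of all genes past the test moved with the settings. With no filter on low counts they went from 0 to 38 (Lyz2), 42 (T), 15 (cDC1) and 6 (mature DC) for anti-MIF, from 0 to 7, 51 and 88 and from 7 to 12 for anti–PD-1 in the same order, and between cohorts from 475 to 1115 in the Lyz2 gate, 0 to 56 in the cDC1 gate and 7 to 20 in mature DCs. They went from 225 to 406 for CD8+ against CD4+ and from 553 to 863 for NK against T cells. DESeq2 moved the cohort counts from 376 to 196 in T cells, 0 to 12 in the cDC1 gate and 7 to 12 in mature DCs, and the anti–PD-1 count from 0 to 12 in the cDC1 gate and from 7 to 4 in mature DCs. Thinning lowered the cohort count to 136 in the Lyz2 gate and 106 in T cells, and the gate counts from 4423 to 2222 (mature DC), 2406 to 873 (cDC1), 1971 to 756 (C1qa+), 553 to 224 (NK) and 225 to 44 (CD8+). Depth limits the genes with few UMIs, such as Cxcr3 (77 and 59 in the T gates) and, in mature DCs, Cxcl9 (34 and 21) and Cxcl10 (16 and 23).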
